A study of Rattus norvegicus with 9 samples.

Results

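The subunits of respiratory complexes II to V were followed in the superior mesenteric artery (SMA), the vessel that feeds most of the small intestine. Rows of the gene count table were taken where the symbol began with Uqcr or Atp5, was one of the 4 succinate dehydrogenase genes or Cyc1, belonged to the nuclear Cox5 to Cox8 families, or named a mitochondrially encoded subunit of complexes III, IV or V. This gave 56 of the 37203 rows, of which 50 came from the nuclear genome and 6 from the mitochondrial genome. Complex II had 4 rows, complex III had 11, complex IV had 20 and complex V had 21. Of the 56 rows, 50 passed the filter on low counts (44 nuclear and 6 mitochondrial). Cox6a2 and Cox8b had few counts and were not tested, and Atp5hl1, Cox7b2, Cox6c-ps1 and Cox8c had no count in any library. The naming rule also took in rows that are not subunits: the pseudogenes Uqcrb-ps1, Atp5h-ps1, Atp5hl1 and Cox6c-ps1, the assembly-related genes Atp5sl and Atp5s, the supercomplex factor gene Cox7a2l, and Cox7a2l2. Cox4i1 and Cox4i2 encode a core-binding subunit of complex IV but lie outside the rule, and are described with the partner genes.

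All animals were 8-week-old Sprague-Dawley rats. The 3 groups held 3 libraries each, from normal controls, from animals 1 h into ischemia and from animals 4 h into ischemia. Ischemia was produced by bleeding anaesthetized rats through a catheter in the right femoral artery, so it was a whole-body loss of blood rather than a clamp on the SMA, and time ran from the end of the bleeding procedure. Whether the normal rats were also anaesthetized and catheterized is not given in the sources used here.

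Complex II passes electrons from succinate to ubiquinone, complex III passes them from ubiquinol to cytochrome c, and complex IV passes them from cytochrome c to oxygen. Complexes III and IV pump protons across the inner mitochondrial membrane, and complex V, the ATP synthase, lets them back to make ATP. Complex II is encoded wholly in the nucleus, while the other complexes mix nuclear subunits with subunits made inside the mitochondrion. Contractile smooth muscle, the main cell type of the arterial wall, relies on this chain together with glycolysis.

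Total counts ran from 13114273 to 15504240 per library, so the counts behind 1 CPM (counts scaled to the effective library size) ran from 12.07 to 17.88. The 6 mitochondrially encoded members took 7.17% to 23.4% of all counts, and the nuclear members together took 0.312% to 0.458%. The tissue label was checked against markers. All 10 smooth muscle markers were detected in the series, and their summed level was lowest in normal replicate 1 (11000 CPM) and highest in replicate 1 at 4 h (69780 CPM). A list of 20 sympathetic neuron markers summed to 52.2 to 1154 CPM in 6 libraries, but to 10470 and 10770 CPM in replicates 1 and 3 at 1 h and to 10570 CPM in replicate 3 at 4 h. These 3 libraries stood apart from the rest, so the group results below are also given with the neuron score, the mean log2 CPM of these markers, as a covariate where that moved them.

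The members varied widely between libraries of the same group. Normal replicate 1 had the lowest level of 33 of the 50 tested members, and replicate 1 at 4 h had the highest level of 30. These were also the libraries with the lowest and the highest smooth muscle marker sum. Other marker lists differed there too. Normal replicate 1 had the highest endothelium, Schwann cell and white fat sums (1702, 3228 and 2779 CPM). It had the lowest cardiac and red cell sums (21.3 and 63.5 CPM). Replicate 1 at 4 h had the lowest endothelium sum (570.9 CPM). Normal replicate 3 had the highest level of 11 members, 6 of them mitochondrially encoded, and replicate 3 at 1 h had the lowest level of 11. Each nuclear member was expressed as its log2 deviation from its own mean over the 9 libraries. The median deviation of the 44 nuclear members was -0.58, -0.16 and 0.25 in the normal libraries, 0.19, -0.15 and -0.19 at 1 h, and 0.47, 0.23 and -0.071 at 4 h. The normal group alone therefore spanned most of the range, and the 3 groups overlapped. The part of smooth muscle or other cell content in these differences was not tested. In whole arteries fewer cells of a type cannot be told apart from less RNA per cell.

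**Figure D1:**
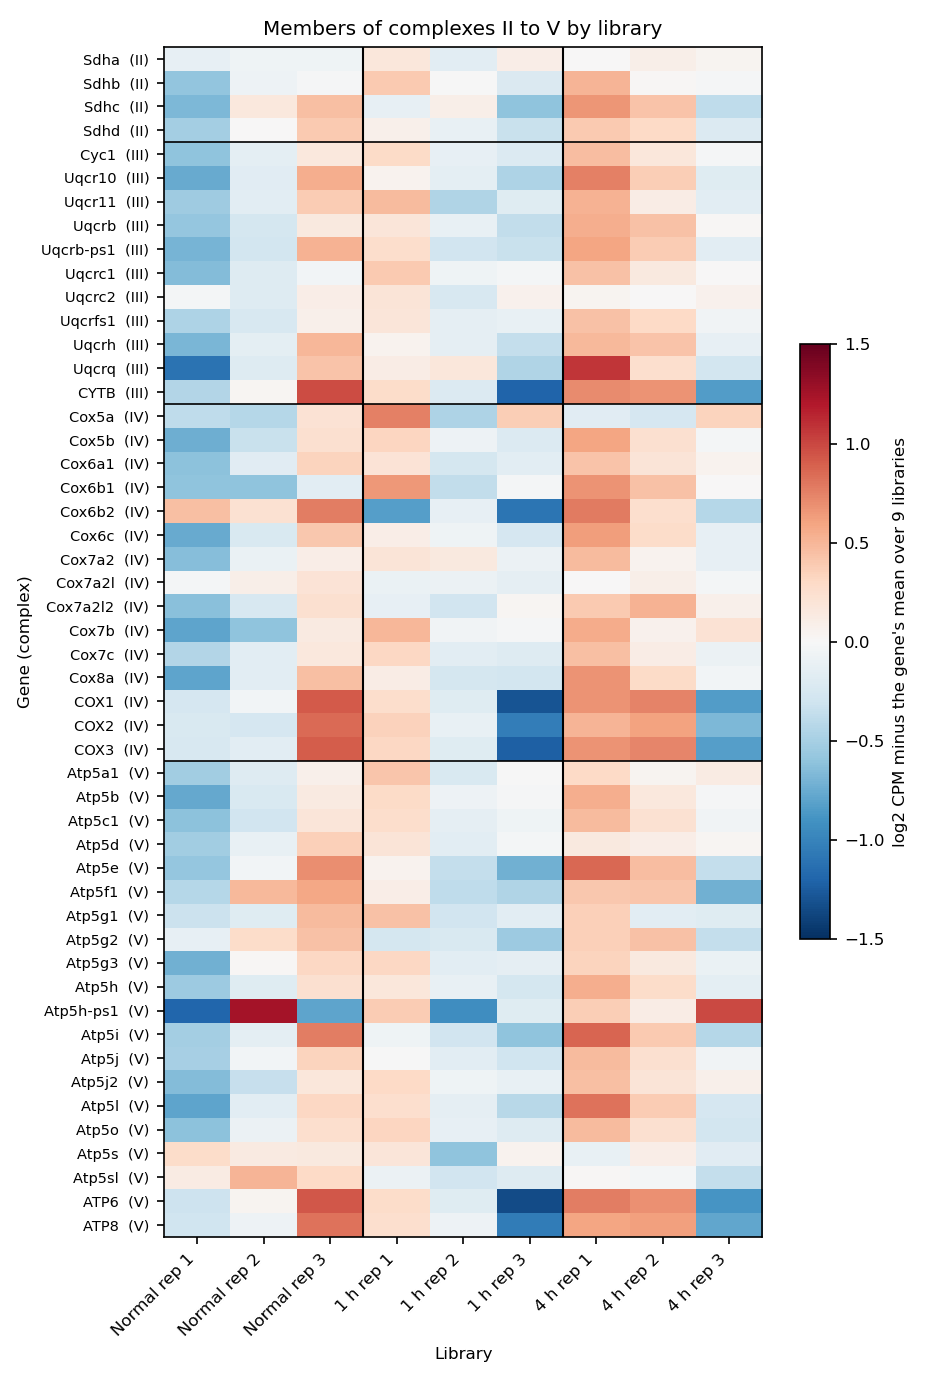
Colour shows the log2 CPM of each tested member (rows, ordered by complex) in each library (columns) minus that gene's mean over the 9 libraries, in log2 units, and vertical lines part the 3 groups. The column of normal replicate 1 is mostly blue and the column of replicate 1 at 4 h mostly red, while the mitochondrially encoded rows are reddest in normal replicate 3 and bluest in replicate 3 at 1 h.

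To ask which members were altered in the early stage, the 1 h group was compared with the normal group. A gene was called at a Benjamini-Hochberg adjusted p under 0.05 in edgeR's quasi-likelihood test together with a fold change over 1.5. No member was called (0 of 50), against 0.0581% of all genes tested, and DESeq2 also called 0 members, against 4.8% of the genes to which it gave an adjusted p. At an unadjusted p under 0.05 there were 2 members (4%), against 16.7% of all genes. These were Atp5sl and Cox6b2, both on the lower side, where the share of all genes was 8.67%, and the higher side held 0 members against 7.98%. The 1 h libraries lay wholly below the normal ones in 4 members (Atp5sl, Atp5g2, Cox6b2 and Cox7a2l), which is 8% against 13.5% of all genes, and wholly above them in 0 members against 12.8%. The median log2 fold change was 0.052 over the members and -0.0076 over all genes tested, and 27 of 50 members were on the higher side (54%, against 49.4% of all genes). The median turned to -0.16 without normal replicate 1 and to -0.12 without replicate 1 at 1 h, and was 0.30 without normal replicate 3. With the neuron score as a covariate it was 0.14, beside -0.032 over all genes. The count of 2 became 1 when normal replicate 2 or replicate 1 at 1 h was left out, and 0 without replicate 3 at 1 h or with the neuron score as a covariate. Over all genes the count was 2578 in the main fit and 1527, 1788, 1267 and 1507 in these fits, in the same order.

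The late stage, 4 h against normal, also gave 0 called members of 50 in both tools, against 0.0904% of all genes by edgeR and 3.98% by DESeq2. At an unadjusted p under 0.05 there were 3 members (6%) against 12.4% of all genes. Cox6b1 and Cox7b were on the higher side, where the share of all genes was 5.07%, and Atp5sl was on the lower side, where it was 7.35%. The 4 h libraries lay wholly above the normal ones for Cox6b1, Sdha and Uqcrc1 (6% of members, 7.93% of all genes) and wholly below them for Atp5sl and Atp5s (4% of members, 10.8% of all genes). The sign of the fold change was more one-sided than these counts. It was positive in 43 of 50 members (86%) against 52.3% of all genes, with a median log2 fold change of 0.30 against 0.027. The 10 smooth muscle markers lay on the same side, all 10 above 0 with a median of 0.40 and none at an unadjusted p under 0.05, and their part in the lean was not tested. The lean depended on normal replicate 1. Without that library the members' median was 0.082, no higher than the 0.083 over all genes. Leaving out replicate 1 at 4 h gave 0.12 beside -0.014. Without normal replicate 3 the median was 0.52, beside 0.015 over all genes. In that fit 14 members had an unadjusted p under 0.05, against 1724 of all genes, where the main fit had 1923. The count of members was 1 when normal replicate 1 or replicate 1 at 4 h was left out. It was 0 when normal replicate 2, replicate 3 at 1 h or replicate 2 at 4 h was left out. Over all genes the count was 1534 to 1809 in the fits with 1 or 0 members. Scaled by library size alone, the members' median was 0.13 and that of all genes -0.15, a gap of 0.28 that was close to the gap of 0.27 under the main scaling.

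Between 4 h and 1 h, 0 of 50 members and 0 of all genes were called by either tool, a background of 0%. At an unadjusted p under 0.05 there were 0 members on either side, against 2.58% of all genes, of which 1.33% were higher and 1.25% lower. The fold change was positive in 48 members (96%) against 46.4% of all genes, with medians of 0.29 and -0.04. All 10 smooth muscle markers were also above 0, with a median of 0.70. With the neuron score as a covariate the members' median was 0.091, beside 0.0097 over all genes, while leaving out replicate 1 at 4 h gave 0.12 and leaving out replicate 1 at 1 h gave 0.45. Scaled by library size alone it was 0.075, beside -0.24 over all genes. The count of 0 became 4 without replicate 3 at 4 h and 1 without replicate 2 at 1 h. Over all genes the count was 400 in the main fit, 3295 in the former fit and 893 in the latter. Cox7a2l and Cox7a2l2 did not overlap between the groups, both higher at 4 h (4% of members, 3.2% of all genes), and 0 members were wholly lower, against 3.04%. In the test of all 3 groups together 0 members were called against 0.0388% of all genes, and only Atp5sl had an unadjusted p under 0.05 (2%, against 11.4%). That count of 1 became 0 when normal replicate 2, replicate 1 or 3 at 1 h or replicate 2 at 4 h was left out, 2 when it was normal replicate 3 and 3 when it was replicate 3 at 4 h. The 1 h and 4 h comparisons share the same normal libraries, so their results are not independent of each other.

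The 95% interval of the log2 fold change lay within -1 and 1, a range that leaves out larger changes, in 33 of 50 members at 1 h (66%, against 33.5% of all genes). It did so in 22 at 4 h (44%, against 37.3%) and in 26 for 4 h against 1 h (52%, against 41%). The nuclear members were the tighter ones, with a median within-group SD of 0.34 log2 units, against 0.78 for the mitochondrially encoded members and 0.44 over all genes. The median standard error (SE) of a nuclear member's log2 fold change was 0.28. The comparisons with all genes, of intervals and of SD, were not matched for expression level.

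**Figure D2:**
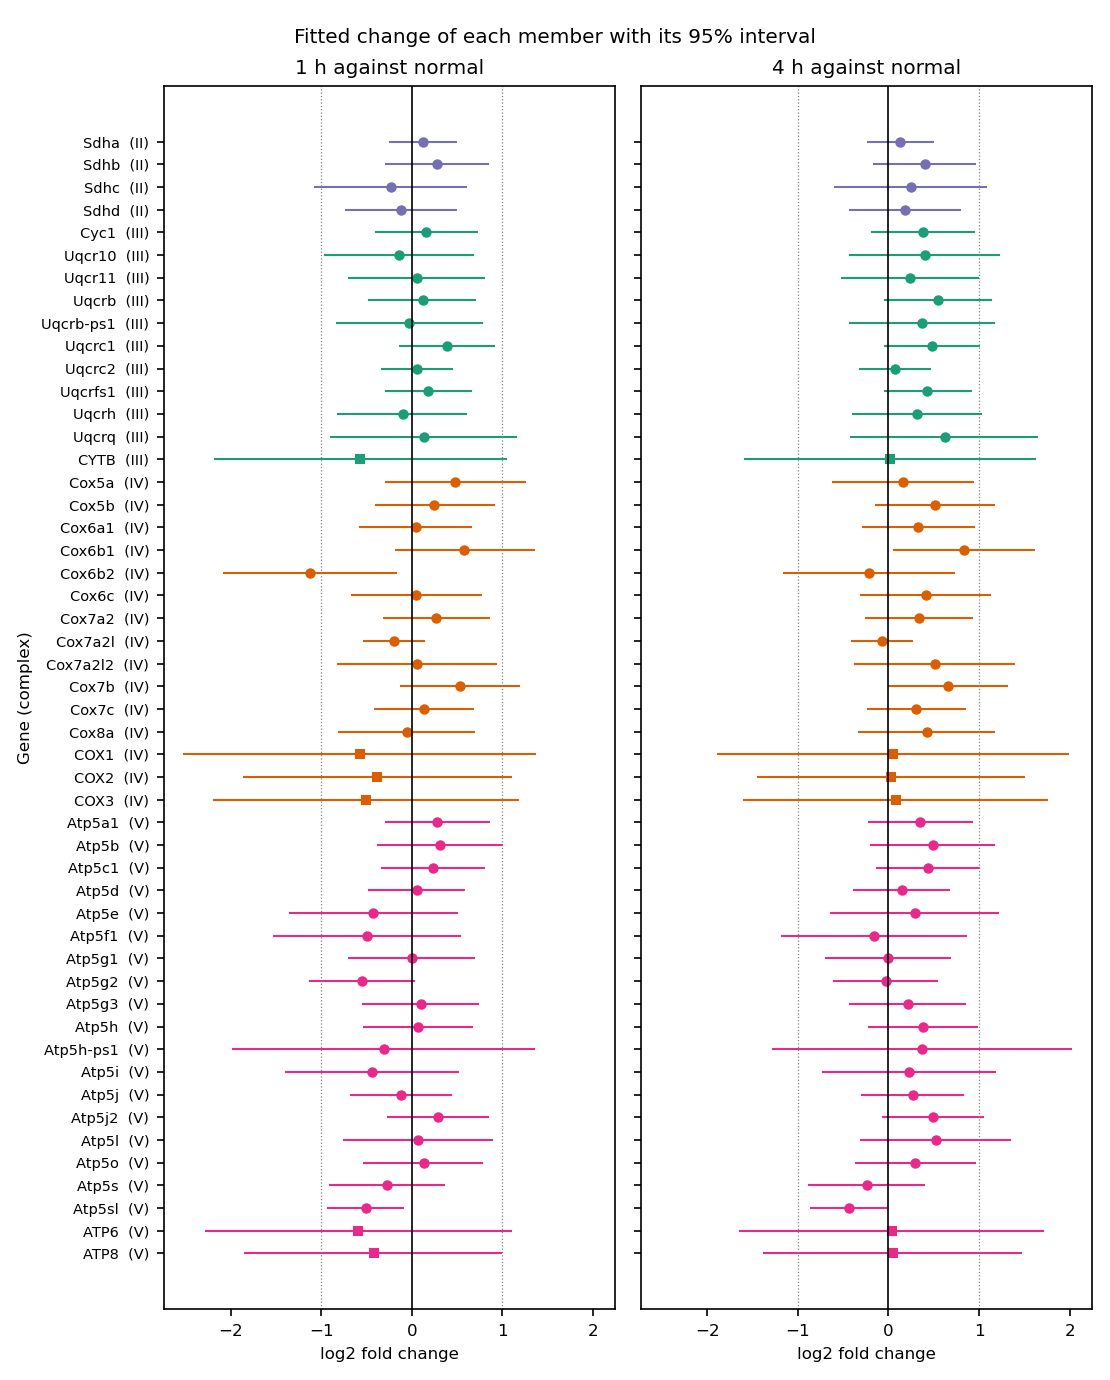
Points are the fitted log2 fold changes of the 50 tested members at 1 h (left) and 4 h (right) against normal, with 95% intervals as bars, coloured by complex, and squares mark mitochondrially encoded members. At 4 h most points lie right of 0 with intervals that cross it, and the bars of the mitochondrially encoded members and of the pseudogene row Atp5h-ps1 run from below -1 to above 1.

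Complex II had 4 tested members, with a median log2 fold change of 0.0029 at 1 h and 0.21 at 4 h. Sdha, the flavoprotein that oxidises succinate, was the steadiest nuclear member, with a ratio of 1.26 between its highest and lowest library. Its level was 157, 164 and 163 CPM in normal rats, 192, 152 and 182 CPM at 1 h, and 172, 181 and 176 CPM at 4 h. The 4 h libraries lay just above the normal ones, with a fitted log2 difference of 0.13 (SE 0.16, adjusted p = 0.757), and this sign reversed to -0.04 under scaling by library size alone. Sdhb, the iron-sulfur subunit, was at 61.1 ± 12.4 CPM in normal rats, 74.2 ± 16.1 at 1 h and 80.5 ± 17.3 at 4 h (SD, n = 3 each), with overlapping groups. The membrane anchors Sdhc and Sdhd spread more widely within groups. Sdhc was at 76.8, 136 and 167 CPM in normal rats, 112, 130 and 80.6 CPM at 1 h, and 193, 164 and 94.0 CPM at 4 h. Sdhd was at 101 ± 30.8, 93.3 ± 13.1 and 115 ± 24.3 CPM in normal rats, at 1 h and at 4 h. For both anchors the normal group alone held a low library, replicate 1, and a high library, replicate 3.

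Complex III had 10 nuclear members tested, and all 10 had a fitted change above 0 at 4 h, with a median of 0.39 against 0.086 at 1 h. Uqcrc1, a core protein of the matrix side, was at 70.9, 97.6 and 108 CPM in normal rats, 147, 107 and 109 CPM at 1 h, and 151.7, 123.1 and 111.9 CPM at 4 h. The 4 h libraries were all above the normal ones, with a fitted log2 difference of 0.48 (SE 0.23, adjusted p = 0.435), which did not pass. Its partner core protein Uqcrc2 differed little among libraries. It was at 111 ± 11.3, 115 ± 17.4 and 116.4 ± 2.498 CPM, and its highest library was 1.36 times its lowest. Uqcrfs1, the Rieske iron-sulfur protein, was at 82.6 ± 15.5, 93.3 ± 11.9 and 112 ± 18.7 CPM (log2 fold change 0.43 at 4 h, SE 0.21, adjusted p = 0.437). Cyc1, cytochrome c1, was at 84.3 ± 21.6, 94.3 ± 17.8 and 110 ± 18.7 CPM (0.38 at 4 h, SE 0.24, adjusted p = 0.553). Among the small subunits, Uqcrq had 32.6 CPM in normal replicate 1 and 148 CPM in replicate 1 at 4 h, a ratio of 4.55. Uqcrb-ps1 carries the name of a pseudogene of Uqcrb, so reads of the pair cannot be assigned with certainty, and its level ran from 19.0 to 46.5 CPM.

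Complex IV had 12 nuclear members tested, with medians of 0.092 at 1 h and 0.37 at 4 h. Its nuclear subunits surround the catalytic core, and several come in tissue isoforms. Cox5a, a core-binding subunit, was at 27.9, 26.8 and 41.9 CPM in normal rats, 61.2, 26.3 and 46.7 CPM at 1 h, and 32.1, 30.4 and 45.6 CPM at 4 h. Its highest library was replicate 1 at 1 h, and the groups overlapped. Cox5b was at 48.8 ± 16.8, 58.2 ± 11.4 and 69.6 ± 15.0 CPM, and Cox6a1, the broadly expressed form of subunit 6a, at 136 ± 44.7, 140 ± 24.9 and 171 ± 22.9 CPM. Cox7b was at 33.2, 37.8 and 63.2 CPM in normal rats, 81.2, 55.7 and 57.0 CPM at 1 h, and 84.7, 60.5 and 66.7 CPM at 4 h. Normal replicate 3 lay inside the range of both ischemic groups, and the log2 fold change at 4 h was 0.66 (SE 0.29, adjusted p = 0.40). Cox7a2 was at 13.6 ± 3.39, 16.4 ± 1.67 and 17.2 ± 3.75 CPM, and Cox8a at 104 ± 43.6, 100 ± 15.5 and 139 ± 34.2 CPM. Cox7a2l, whose product links complexes III and IV into supercomplexes, was at 133, 144 and 156 CPM in normal rats, 126.2, 127.2 and 123.4 CPM at 1 h, and 136, 144 and 133 CPM at 4 h. Its 3 libraries at 1 h lay below every other library, with a small log2 difference of -0.20 against normal (SE 0.14, adjusted p = 0.451). Cox7a2l2 was low throughout, at 0.895 to 1.99 CPM.

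The isoforms of subunit 6b had fitted changes of opposite sign. Cox6b1 encodes the broadly expressed form and Cox6b2 a form best known from testis, and both had few counts in these libraries. Whether reads of either gene were lost in counting was not tested. Cox6b1 had 82, 63 and 85 counts in normal rats (4.59, 4.59 and 6.27 CPM), 164, 81 and 111 counts at 1 h (10.96, 5.41 and 6.81 CPM), and 135, 114 and 106 counts at 4 h (11.2, 9.44 and 6.99 CPM). All 4 h libraries lay above all normal ones, while replicate 2 at 1 h lay among them. Its log2 fold change was 0.58 at 1 h (SE 0.34, adjusted p = 0.362) and 0.83 at 4 h (SE 0.34, adjusted p = 0.36). The 1 h value was 0.25 without replicate 1 at 1 h and 0.79 without replicate 2 at 1 h. Cox6b2 had 87, 57 and 82 counts in normal rats (4.87, 4.16 and 6.05 CPM), 30, 49 and 27 counts at 1 h (2.01, 3.27 and 1.66 CPM), and 74, 51 and 40 counts at 4 h (6.11, 4.22 and 2.64 CPM). All 1 h libraries lay below all normal ones, and the 4 h libraries overlapped both other groups. Its log2 fold change was -1.12 at 1 h (SE 0.41, adjusted p = 0.275) and -0.22 at 4 h (SE 0.41, adjusted p = 0.855).

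Dividing the isoforms within a library takes out the depth and scaling of that library. The log2 ratio of Cox6b1 to Cox6b2 counts was -0.085, 0.14 and 0.052 across the normal libraries, 2.45, 0.73 and 2.04 at 1 h, and 0.87, 1.16 and 1.41 at 4 h. The normal libraries were tightly grouped and lay below all 6 ischemic libraries. The 3 highest ratios, 2.45 and 2.04 at 1 h and 1.41 at 4 h, came from the 3 libraries with high neuron marker sums. The part of neurons in the ratio was not tested. The mean ratio was higher by 1.70 at 1 h and by 1.11 at 4 h on the log2 scale. Leaving out each library in turn gave differences of 1.35 to 2.21 at 1 h and 0.98 to 1.25 at 4 h. The ratios were chosen after the values were seen, so no test is given, and with 3 libraries against 3 an exact permutation test cannot go below p = 0.1. The level of such a ratio also depends on transcript length, so only its differences between libraries are read.

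**Figure D3:**
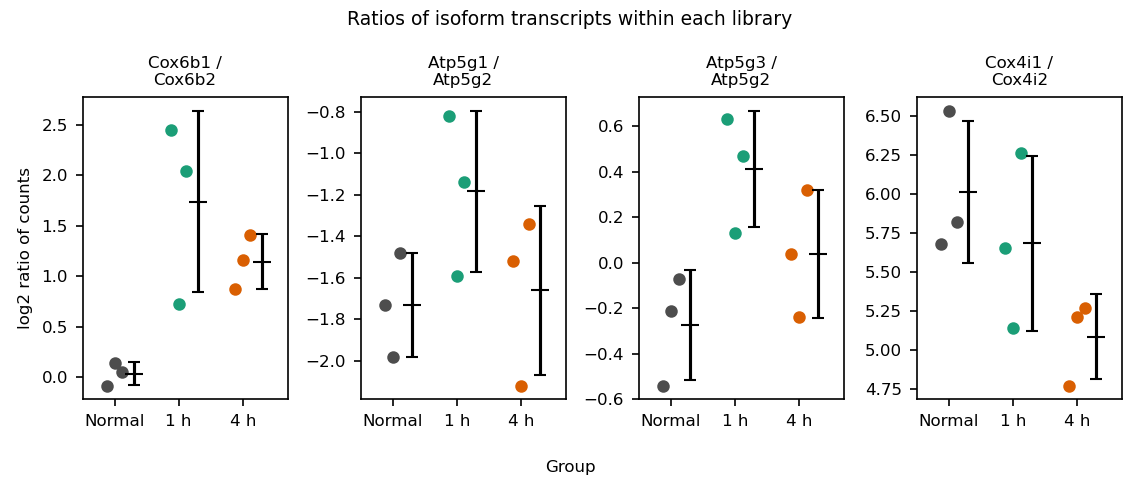
Each point is the log2 ratio of counts of a pair of isoform genes in a library, by group, and bars are the mean ± SD of 3 libraries, with a separate vertical scale in each panel. For Cox6b1 over Cox6b2 the 3 normal libraries lie near 0 and all 6 ischemic libraries lie above them, and for Atp5g3 over Atp5g2 the 1 h libraries lie above the normal ones.

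The forms of subunits 6a and 8 known from heart, skeletal muscle and brown fat appeared in single libraries. Cox6a2 had 43 counts (2.87 CPM) in replicate 2 at 1 h and 0 to 5 counts in every other library. Cardiac markers were high in the same library. In that library Myh7 was at 38.5 CPM, Myh6 at 16.8 CPM and Tnni3 at 14.7 CPM, and Mb, shared by cardiac and skeletal muscle, at 33.0 CPM, while in the other 8 libraries the 4 genes were at 0 to 0.552 CPM. Cox8b had 39 counts (2.61 CPM) in replicate 1 at 1 h, 7 counts in replicate 2 at 1 h and 0 or 1 count elsewhere. Ucp1, the uncoupling protein of brown fat, was at 85.0 CPM in the first of these. Ucp1 was also at 36.6 CPM in replicate 3 at 4 h, where Cox8b had 1 count, and at 2.82 CPM in replicate 3 at 1 h, where it had 0. The 9 cardiac markers summed to 194 CPM in replicate 2 at 1 h and 21.3 to 122 CPM elsewhere, with 1 marker at 0 in all libraries. The 8 brown fat markers other than Cox8b summed to 245 CPM in replicate 1 at 1 h and 48.3 to 134 CPM elsewhere. The part of these other tissues in the counts of Cox6a2 and Cox8b was not tested. Neither gene had a value for a group comparison.

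Complex V had 18 nuclear members tested, with medians of 0.028 at 1 h and 0.28 at 4 h. Its F1 head makes ATP on alpha and beta subunits set around a turning gamma subunit. Atp5b, the catalytic beta subunit, was at 418, 609 and 783 CPM in normal rats, 872, 675 and 703 CPM at 1 h, and 1038, 795 and 706 CPM at 4 h. Normal replicate 3 overlapped both ischemic groups, and the log2 fold change was 0.31 at 1 h (SE 0.30, adjusted p = 0.576) and 0.49 at 4 h (SE 0.30, adjusted p = 0.54). Atp5a1, the alpha subunit, was at 323 ± 66.6, 392 ± 90.6 and 411 ± 38.0 CPM (log2 fold change 0.35 at 4 h, SE 0.25, adjusted p = 0.585). Atp5c1, the gamma subunit, was at 84.5 ± 23.8, 99.4 ± 15.4 and 114 ± 21.0 CPM (0.44 at 4 h, SE 0.25, adjusted p = 0.51). These 3 head genes had means in the order normal, 1 h, 4 h, with overlapping groups in each. Atp5e, the epsilon subunit of the head, did not follow that order, at 78.2 ± 34.9, 58.2 ± 15.7 and 95.3 ± 37.2 CPM. Among the stalk and membrane subunits, Atp5l had the most positive fitted change at 4 h, at 0.52 (SE 0.36, adjusted p = 0.576), with 59.0 CPM in normal replicate 1 and 180 CPM in replicate 1 at 4 h. Its change was 0.21 without the latter library, 0.28 without the former and 0.82 without normal replicate 3. Atp5f1, subunit b of the stator, had only 20 to 44 counts per library (1.32 to 3.25 CPM). Atp5h-ps1 had the widest range of any nuclear member, from 0.336 to 1.82 CPM, a ratio of 5.43.

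Atp5sl and Atp5s carry ATP synthase symbols but are annotated now as Dmac2 and Dmac2l, and Dmac2 is known for the assembly of the distal membrane arm of complex I. Atp5sl was at 29.9, 39.2 and 33.8 CPM in normal rats, 25.7, 22.4 and 23.9 CPM at 1 h, and 27.8, 26.8 and 21.4 CPM at 4 h. All 6 ischemic libraries lay below all 3 normal ones. The log2 fold change was -0.51 at 1 h (SE 0.18, adjusted p = 0.262) and -0.44 at 4 h (SE 0.18, adjusted p = 0.375), and neither passed after adjustment. Over the 9 fits that each left out a library, it ran from -0.60 to -0.42 at 1 h and from -0.53 to -0.32 at 4 h. Atp5s was at 5.99 ± 0.338, 4.96 ± 1.31 and 5.06 ± 0.502 CPM.

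Subunit c, which forms the rotor ring of the ATP synthase membrane part, is encoded by Atp5g1, Atp5g2 and Atp5g3 (Atp5mc1, Atp5mc2 and Atp5mc3 in RefSeq). These genes encode the same mature peptide with different import sequences, so they are read side by side. Atp5g2 was at 72.9, 96.2 and 107 CPM in normal rats, 66.4, 67.9 and 54.4 CPM at 1 h, and 102, 108 and 61.9 CPM at 4 h. All 1 h libraries lay below all normal ones, with a fitted log2 difference of -0.55 (SE 0.25, adjusted p = 0.305), whereas the 4 h libraries spanned both groups. Atp5g3 was at 50, 83.4 and 102 CPM in normal rats, 103, 74.3 and 75.2 CPM at 1 h, and 105, 91.3 and 77.4 CPM at 4 h. Atp5g1 was at 28.3 ± 8.88, 28.3 ± 8.11 and 28.2 ± 6.27 CPM. The log2 ratio of Atp5g3 to Atp5g2 counts was -0.54, -0.21 and -0.071 across the normal libraries, 0.63, 0.13 and 0.47 at 1 h, and 0.037, -0.24 and 0.32 at 4 h. Thus the 1 h libraries lay above all normal ones, by a mean of 0.68, and the 4 h libraries overlapped both groups. The highest ratios, 0.63 and 0.47 at 1 h and 0.32 at 4 h, came from the libraries with high neuron marker sums. Those libraries also had the lowest Atp5g2 levels. The ratio of Atp5g1 to Atp5g2 overlapped between groups, with means of -1.73 ± 0.25, -1.18 ± 0.39 and -1.66 ± 0.41. It too was highest in those libraries, at -0.82 and -1.14 at 1 h and -1.34 at 4 h. The part of neurons in both ratios was not tested.

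The promoters of the isoform genes are shown because the ratios Cox6b1/Cox6b2 and Atp5g3/Atp5g2 did not overlap between 1 h and normal libraries. They come from RefSeq on build GRCr8, which need not be the build behind the counts, and run from 250 bases before to 50 after the annotated start, 5′ to 3′ on the gene's strand. Capitals mark matches to NRF-1 or ERR, factors known for the control of respiratory genes, on either strand. Atp5g1 lies at chr10:81523296-81523595 (minus strand), Atp5g2 at chr7:135678169-135678468 (minus strand), Atp5g3 at chr3:79220615-79220914 (minus strand), Cox6b1 at chr1:95009803-95010102 (minus strand) and Cox6b2 at chr1:78122621-78122920 (plus strand).
Atp5g1: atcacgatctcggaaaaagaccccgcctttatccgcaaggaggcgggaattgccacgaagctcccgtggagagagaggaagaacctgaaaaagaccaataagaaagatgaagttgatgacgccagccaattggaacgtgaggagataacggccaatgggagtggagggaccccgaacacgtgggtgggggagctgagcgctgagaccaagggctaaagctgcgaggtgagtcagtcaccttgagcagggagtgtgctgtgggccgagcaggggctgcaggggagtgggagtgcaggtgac
Atp5g2: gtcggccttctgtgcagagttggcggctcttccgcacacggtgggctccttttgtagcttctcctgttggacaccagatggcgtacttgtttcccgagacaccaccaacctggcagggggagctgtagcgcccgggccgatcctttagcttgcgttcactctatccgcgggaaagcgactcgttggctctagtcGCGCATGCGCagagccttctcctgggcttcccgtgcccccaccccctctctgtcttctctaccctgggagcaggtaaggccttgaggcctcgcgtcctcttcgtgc
Atp5g3: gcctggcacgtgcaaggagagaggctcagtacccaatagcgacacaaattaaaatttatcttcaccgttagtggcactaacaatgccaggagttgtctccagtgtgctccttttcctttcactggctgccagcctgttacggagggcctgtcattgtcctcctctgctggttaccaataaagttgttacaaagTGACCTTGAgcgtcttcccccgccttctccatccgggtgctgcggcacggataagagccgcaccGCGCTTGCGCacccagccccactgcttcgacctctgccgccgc
Cox6b1: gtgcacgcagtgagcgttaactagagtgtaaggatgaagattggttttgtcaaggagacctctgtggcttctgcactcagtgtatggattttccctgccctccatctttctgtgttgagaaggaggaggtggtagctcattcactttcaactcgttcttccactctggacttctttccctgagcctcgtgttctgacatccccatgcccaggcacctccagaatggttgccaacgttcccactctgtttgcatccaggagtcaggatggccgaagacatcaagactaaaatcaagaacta
Cox6b2: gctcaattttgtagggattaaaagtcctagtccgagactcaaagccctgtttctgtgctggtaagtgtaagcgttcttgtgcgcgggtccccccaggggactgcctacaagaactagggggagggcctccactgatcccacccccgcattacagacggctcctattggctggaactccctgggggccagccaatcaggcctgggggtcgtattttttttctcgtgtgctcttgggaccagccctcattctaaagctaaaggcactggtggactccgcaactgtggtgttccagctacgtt
Atp5g2 had an NRF-1 match (GCGCA, any base, then GCGC) that began 56 bases before the start. Atp5g3 had an ERR match (TCAAGGTCA, here on the other strand) 57 bases before the start and an NRF-1 match 8 bases after it. Atp5g1, Cox6b1 and Cox6b2 had no match to any of the 5 motifs searched in this window. Annotated starts were not checked against the reads, so a window may miss the promoter in use. The Cox6b1 window ends in an ATG with an open reading frame, so its annotated start may lie inside the transcript.

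Promoters of 39 of the 56 rows were found in RefSeq, of which the table holds 33469 of the same length. NRF-1 matches stood in 7 member promoters (17.9%, against 3.77% of all promoters), namely those of Sdha, Uqcrc1, Atp5c1, Atp5g2, Atp5g3, Atp5i and Atp5o. The GABP motif (CCGGAAG) stood in 12 (30.8%, against 7.5%), the YY1 motif (AAGATGGC) in 7 (17.9%, against 2.79%), the ERR motif in 2 (5.13%, against 0.305%) and the cyclic AMP response element (TGACGTCA) in 2 (5.13%, against 1.54%). No match overlapped another in the printed windows. The background was every promoter held, with no filter on gene type or expression, so the shares are not like for like. These are matches of letters, given as a description, and binding was not measured.

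The 6 mitochondrially encoded members were high or low in the same libraries. COX1, the catalytic subunit that reduces oxygen, was at 43580, 50320 and 98000 CPM in normal rats, 62250, 45720 and 21100 CPM at 1 h, and 82420, 86850 and 28900 CPM at 4 h. Each group held both high and low libraries, and the groups overlapped. CYTB, the cytochrome b of complex III, was at 11860, 16410 and 31570 CPM in normal rats, 19440, 13920 and 6985 CPM at 1 h, and 26280, 25470 and 8936 CPM at 4 h. ATP6, the channel subunit of complex V, was at 16720, 21250 and 39530 CPM in normal rats, 25040, 18180 and 8180 CPM at 1 h, and 35130, 33340 and 11170 CPM at 4 h. Normal replicate 3 was the highest, and replicate 3 at 1 h the lowest, of all 9 libraries for each of them. COX2, COX3 and ATP8 kept this order of extremes. Replicates 3 at 1 h and at 4 h, the lowest libraries for each gene, had high neuron marker sums, whereas replicate 1 at 1 h, with a like sum of 10470 CPM, was the highest of its group.

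The median log2 fold change of the 6 genes was -0.54 at 1 h and 0.043 at 4 h against normal, with a median SE of 0.72 and 0.71, and adjusted p-values by edgeR's quasi-likelihood test ran from 0.674 to 0.769 at 1 h and from 0.978 to 0.995 at 4 h. Without normal replicate 3, COX2 at 1 h turned to 0.085, and with the neuron score as a covariate ATP8 at 1 h turned to 0.045. Shares among the 6 genes were far steadier than their levels. COX1 held 35.8% to 38.7% of their counts over the 9 libraries, COX3 15.8% to 17.3%, ATP6 13.9% to 16.1%, CYTB 10.4% to 12.4%, COX2 9.39% to 12.2% and ATP8 7.64% to 9.28%. ATP6 and ATP8 overlap on the mitochondrial genome, so reads from the overlap cannot be assigned to either. COX2 and ATP8 had their largest share in replicate 3 at 1 h, the library with the lowest sum of the 6.

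**Figure D4:**
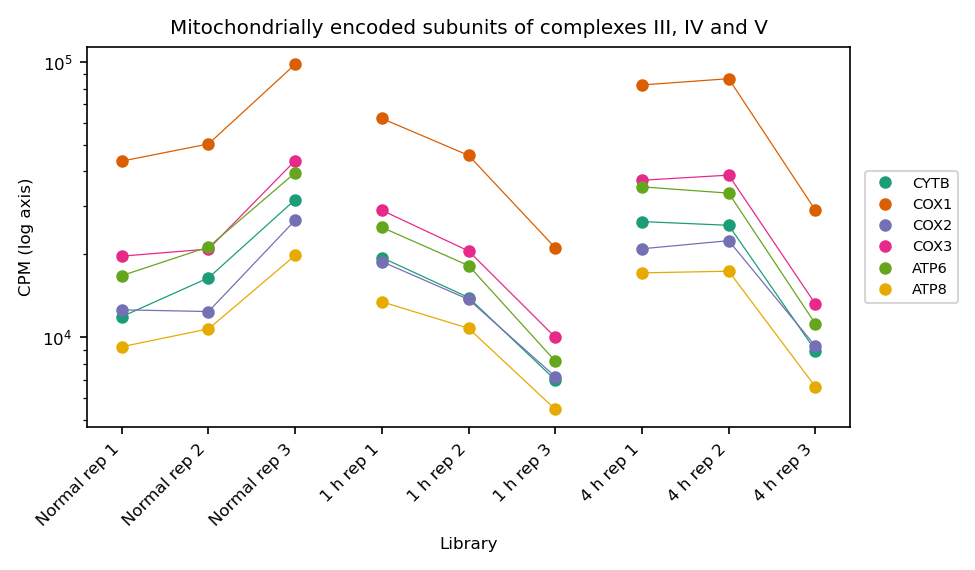
Points show the CPM of each mitochondrially encoded member (log axis) in the 9 libraries, joined within a group to guide the eye along a gene and not to mark an order. The 6 lines run nearly parallel, with normal replicate 3 highest and replicate 3 at 1 h and at 4 h lowest.

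The balance of mitochondrial to nuclear transcripts within a complex followed the same libraries. For complex IV the log2 ratio of the summed CPM was 7.27, 7.08 and 7.63 across the normal libraries, 7.09, 7 and 5.92 at 1 h, and 7.23, 7.57 and 6.19 at 4 h. Replicate 3 at 1 h and replicate 3 at 4 h were below all others, and the remaining 7 libraries lay between 7 and 7.63. For complex III the ratio was 3.54 and 3.78 in those libraries and 4.48 to 5.31 in the others, and for complex V it was 2.85 and 3.16 against 3.96 to 4.62. The low libraries had neuron marker sums of 10770 and 10570 CPM, and replicate 1 at 1 h had one of 10470 CPM, but its ratios of 7.09, 4.61 and 3.96 were inside or at the edge of the other libraries' range. The part of neuron RNA in this was not tested.

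Genes that work with complexes II to V were taken from 5 lists. No gene in them was called by edgeR, while DESeq2 called 3 at 1 h (Cycs, Coq10b and Ttc19), 3 at 4 h (Cycs, Coq10b and Polg) and 0 between 4 h and 1 h. With 72 list genes tested, these counts were close to DESeq2's share of 4.8% at 1 h and 3.98% at 4 h over all genes. At an unadjusted p under 0.05, the list of cytochrome c and other subunits outside the rule (7 tested) had 1 gene higher at 1 h and 2 higher at 4 h. Assembly factors of complexes III and IV (28 tested) had 1 higher at 1 h, and 1 higher and 1 lower at 4 h. Factors of ATP synthase assembly and of metabolite exchange (10 tested) had 1 lower at 1 h and 1 higher at 4 h. Regulators of respiratory gene transcription (14 tested) had 1 lower at each time, and ubiquinone synthesis genes (13 tested) had 1 higher and 1 lower at 1 h and 1 higher at 4 h. Between 4 h and 1 h there were 0 in each list. Over all genes the shares were 7.98% higher and 8.67% lower at 1 h, and 5.07% and 7.35% at 4 h, so counts of 1 in these small lists are no result about a list.

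Cycs, the cytochrome c that carries electrons from complex III to complex IV, was at 22.3, 24.5 and 40.5 CPM in normal rats, 61.5, 55.7 and 49.7 CPM at 1 h, and 63.1, 54.2 and 56.7 CPM at 4 h. All 6 ischemic libraries lay above all normal ones. The log2 fold change was 0.94 at 1 h (SE 0.24, adjusted p = 0.21) and 1.00 at 4 h (SE 0.24, adjusted p = 0.162) by edgeR, which did not call it, while DESeq2 did, with adjusted p-values of 0.0287 and 0.0173. Coq10b, a ubiquinone-binding protein, was at 22.2, 34.1 and 50.2 CPM in normal rats, 59.1, 217 and 205 CPM at 1 h, and 135.5, 123.2 and 121.0 CPM at 4 h. These groups did not overlap either, the fitted log2 difference being 2.18 at 1 h (SE 0.49, adjusted p = 0.186) and 1.83 at 4 h (SE 0.49, adjusted p = 0.187) by edgeR and adjusted p-values of 0.00179 and 0.0128 by DESeq2. The highest fitted changes among the 50 members were 0.58 at 1 h and 0.83 at 4 h, both of Cox6b1.

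Cox4i2, the form of complex IV subunit 4 known from lung and from low oxygen, was at 4.47, 2.99 and 5.02 CPM in normal rats, 6.35, 7.08 and 3.13 CPM at 1 h, and 14.4, 9.69 and 6.60 CPM at 4 h. Its 4 h libraries lay above the normal ones (log2 fold change 1.29, SE 0.42, adjusted p = 0.268). The common form Cox4i1 was at 263 ± 28.8, 269 ± 42.4 and 335 ± 71.6 CPM (0.35 at 4 h, SE 0.23, adjusted p = 0.563). The log2 ratio of Cox4i1 to Cox4i2 counts was 5.68, 6.53 and 5.82 across the normal libraries and 4.77, 5.21 and 5.27 at 4 h, without overlap and with a mean difference of -0.93, and at 1 h it was 5.65, 5.14 and 6.26. Ttc19, a complex III maturation factor, was at 10.01, 11.6 and 11.2 CPM in normal rats, 44.8, 16.6 and 34.7 CPM at 1 h, and 17.2, 12.8 and 38.5 CPM at 4 h. Its 3 highest libraries were the 3 with the highest neuron marker sums, and the part of neurons in its difference was not tested (log2 fold change 1.55 at 1 h, SE 0.48, adjusted p = 0.232 by edgeR and 0.044 by DESeq2).

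On the lower side, Atpaf2, a chaperone for the alpha subunit of ATP synthase, was at 17.9, 26.0 and 28.0 CPM in normal rats and 15.4, 13.7 and 15.5 CPM at 1 h. These groups did not overlap (log2 fold change -0.69, SE 0.23, adjusted p = 0.256), and at 4 h it was at 19.7, 17.9 and 13.5 CPM. Polg, the polymerase that copies the mitochondrial genome, was at 32.5, 31.0 and 41.8 CPM in normal rats, 25.3, 27.7 and 25.4 CPM at 1 h, and 23.5, 23.1 and 20.4 CPM at 4 h. All 6 ischemic libraries lay below the normal ones, the fitted log2 difference being -0.65 at 4 h (SE 0.17, adjusted p = 0.188 by edgeR and 0.0371 by DESeq2).

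**Figure D5:**
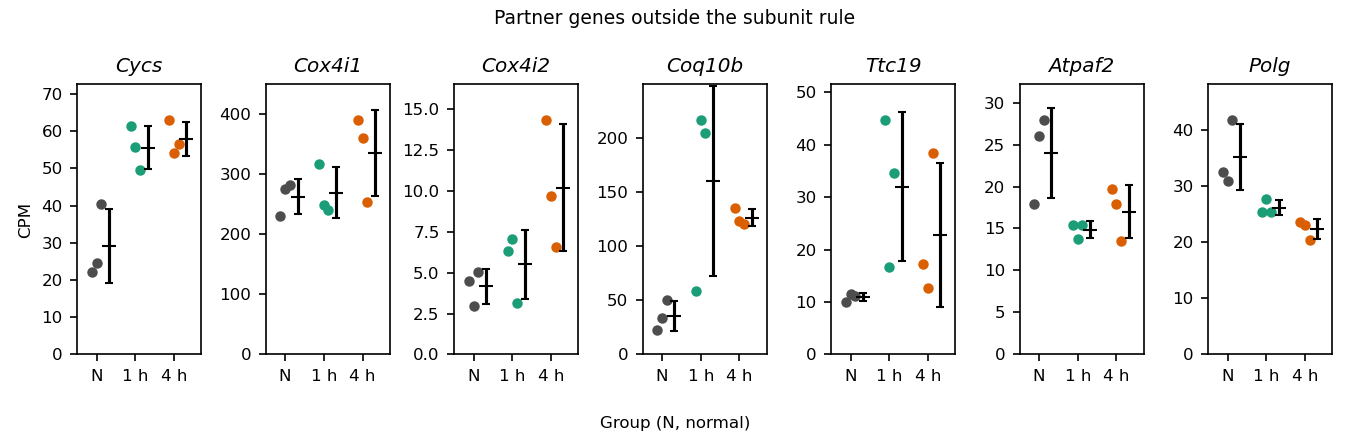
CPM (linear axis from 0, a separate scale in each panel) of 7 partner genes in normal (N), 1 h and 4 h libraries, with points for libraries and bars for mean ± SD of 3. All 6 ischemic libraries lie above the normal ones for Cycs and Coq10b and below them for Polg.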

How the data were processed

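SMA RNA was sequenced on an Illumina HiSeq X instrument per the labels, and the authors deposited a table of raw counts per gene symbol for 9 libraries. HISAT2 is named in the submitters' processing notes. The counting tool, genome build, annotation and use of strand are not given in the sources used here. The study's methods also describe Agilent microarrays, but the deposited values are whole-number counts and were analysed as such. Reads shared with processed pseudogenes, which many of these genes have, may have been split or lost in counting.

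Counts were tested in R 4.3.3 with edgeR 4.0.16 (filterByExpr, TMM scaling, glmQLFit and glmQLFTest on all 9 libraries, group as the only term), and the Benjamini-Hochberg adjustment ran over 15482 genes. Calls needed an adjusted p under 0.05 and a fold change over 1.5, the thresholds of the study. The common biological coefficient of variation was 51.6%. CPM used TMM-scaled library sizes, and heat map values are the log2 of these CPM with no prior count. The median deviations per library, the within-group SD and the neuron score used log2 CPM with a prior count of 2. Errors beside means are SD over 3 libraries, and SE is the size of a log2 fold change divided by the square root of F. Alternatives included DESeq2 1.42.0.

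The series text gives 3 rats per group. The study's methods leave room for the same rats in each condition, and if libraries were not separate rats, p-values measure a spread that may be technical. No library was a copy of another (lowest chi-square per degree of freedom 29.9). Members and lists were chosen with earlier results of these data known. Genes were named by role (catalytic and core subunits, tissue isoforms, mitochondrially encoded genes), with the members and up to 4 list genes of smallest p in each contrast. Uqcrb-ps1, Uqcrq, Cox6c-ps1, Atp5e, Atp5f1, Atp5h-ps1, Atp5hl1, Atp5l, Atp5s and the isoform ratios fall outside that rule and were picked with their values in view. Promoters were matched by symbol or synonym, which paired 50 of the 56 rows with a RefSeq gene, 18 of them by synonym only.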

Additional observations from a re-analysis of the deposited data

How the results depend on the processing

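No member was called in any comparison under any alternative run. The number of members at an unadjusted p under 0.05 moved more. At 1 h (2 members) it was 5 with scaling by library size alone, 0 with the neuron score as a covariate and 1 among named subunits only, and 0 to 3 when each library was left out in turn. The count over all genes was 2578 in the main fit, 2157 with library size alone and 1507 with the neuron score. It was 1267 to 3752 when each library was left out. At 4 h (3 members) the number of members was 1 with library size alone, 1 when only the groups compared were fitted, and 0 to 14 when each library was left out. Over all genes it was 1923 in the main fit, and 2011, 1717 and 1534 to 2012 in these fits, in the same order. For 4 h against 1 h (0 members) the number of members was 2 with no low count filter and 0 to 4 when each library was left out. Over all genes it was 400 in the main fit, 540 with no filter and 127 to 3295 when each library was left out. For all 3 groups (1 member) the number of members was 0 with relative log expression factors, 3 with library size alone and 0 with the neuron score. It was 0 among named subunits only, and 0 to 3 when each library was left out. The count over all genes was 1771 in the main fit, 1748 with relative log expression factors, 1696 with library size alone and 1781 with the neuron score. It was 1150 to 3818 when each library was left out. The restriction to named subunits was chosen after seeing the data, and the cause of the other moves was not tested.

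Replicate numbers were not taken to pair the libraries, since deviations of same-numbered libraries from their group means correlated from -0.65 to 0.66. All 3 pairs of replicate 2 were positive (0.28 to 0.62). Rats were killed before the artery was taken, so same-numbered libraries could not share a rat. What else they may share is not given in the sources used here. With a replicate block the number of members at an unadjusted p under 0.05 was 2 at 1 h, 0 at 4 h and 0 for all 3 groups. Over all genes it was 2781, 1759 and 1782.

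Of 861 alternative values of 51 gene fold changes, 849 kept their sign and were not called, 6 reversed and 6 were called, the latter all by DESeq2 and none of a member. Some of the 51 are not printed here, and the printed change of Cox6b2 at 4 h was not among them. Sdha at 4 h was -0.04 with library size alone, and ATP8 at 1 h was 0.045 with the neuron score. Over fits that left out each library, Atp5g3 at 4 h ran from -0.028 to 0.45, COX2 at 1 h from -0.72 to 0.085 and Cox4i1 at 1 h from -0.1 to 0.091, while the 4 h difference of log2 Atp5g1/Atp5g2 ran from -0.091 to 0.3. Spread between 3 libraries a group limits what could be detected, and Cox6b1, Cox6b2, Atp5f1 and Cox7a2l2 rest on few counts.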
